A study of Arabidopsis thaliana with 7 samples.

Results

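The alternative oxidases and their companions of the mitochondrial retrograde response were followed in seedlings with a disrupted HOT3 gene. HOT3 encodes eIF5B1, a translation initiation factor that helps the ribosomal subunits to join. The set held 10 genes of the 27655 in the count files: the alternative oxidases AOX1A, AOX1C and AOX1D, the type II NAD(P)H dehydrogenases NDA2, NDB2 and NDB4, the stress targets UPOX and UGT74E2, and the transcription factors ANAC013 and ANAC017. All 10 passed the filter on low counts, which left 20795 genes for testing. The genes were selected on their levels in these libraries, so each mutant is set against WT for them as a description, and nothing is read from a test. The levels of all 3 genotypes were known when the genes were chosen, so the difference between the alleles is a description for them too. P values are printed only for genes outside the set, and counts of members past a limit are descriptions. The lists of related genes were also drawn up with earlier results of these data known.

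Polyadenylated RNA was sequenced from 18-day-old seedlings grown under a day of 16 h light and a night of 8 h at 23°C, starting from 4 µg of total RNA per library. The groups were hot3-2 (n = 3), hot3-3 (n = 2) and WT (n = 2), 7 libraries in all. Per the study's methods, hot3-2 and hot3-3 each carry a T-DNA insertion in HOT3, and plants were of the Columbia (Col-0) ecotype. The labels do not say whether replicates came from separate cultures or plants, so P values measure the spread between these libraries, which may be technical. Whole seedlings were used, and in such bulk RNA fewer cells of a type and less RNA per cell cannot be told apart.

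The plant respiratory chain has an energy-dissipating bypass. Type II NAD(P)H dehydrogenases pass electrons to ubiquinone without pumping protons, and alternative oxidases pass them from ubiquinol to oxygen, around the cytochrome pathway. When mitochondria are impaired, ANAC017 is released from the endoplasmic reticulum membrane and enters the nucleus, and it and the related ANAC013 bind a short promoter element, the mitochondrial dysfunction motif, in front of genes such as AOX1A and UPOX. This signal from organelle to nucleus is called retrograde.

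Library totals ran between 14090881 and 34696683 counts, and replicates of a genotype correlated at 0.9864 to 0.9934 on the log scale. The lowest value was that of the WT pair, followed by 0.988 for the hot3-3 pair. Levels are given as CPM, the gene's count divided by the scaled total of its library. HOT3 itself had 77.7, 97.4 and 92.5 CPM in hot3-2 and 195 and 271 CPM in hot3-3, against 171 and 169 CPM in WT, so its gene count does not check the hot3-3 label. The summed level of 4 leaf markers was 12809 to 13536 CPM in hot3-2 and 11918 to 12606 CPM in hot3-3, against 16085 to 17500 CPM in WT. RBCS1A and CA1, genes of carbon fixation, made the lower sum, whereas LHCB1.1, a light-harvesting gene, had means of 2286 CPM in hot3-2 and 2299 CPM in hot3-3, against 664 and 1507 CPM in the WT libraries. For 9 root markers the sum was 2059 to 2545 CPM in hot3-2 and 2348 to 2469 CPM in hot3-3, against 1454 to 1588 CPM in WT. PYK10 made most of that sum, and of the 9 root markers 1 rose and 2 fell in hot3-2 and 2 rose and 2 fell in hot3-3, so the list went both ways. For 3 senescence markers it was 146 to 191 CPM in hot3-2 and 59 to 70.9 CPM in hot3-3, against 244 to 404 CPM in WT. SEN1 made nearly all of that sum, while SAG13 went the other way, with means of 5.09 CPM in hot3-2 and 16 CPM in hot3-3 against 2.82 CPM in WT. SAG12, which defines leaf senescence, was at 0 counts in every library. For 5 flower markers the sum was 4.29 to 5.29 CPM in hot3-2 and 3.08 to 3.18 CPM in hot3-3, against 5.78 to 6.95 CPM in WT. Of the 3 that could be tested, only AP1 was past the study's limits, lower in both alleles. It rested on 6 counts in hot3-2 and 0 in hot3-3, against 26 in WT. PI went both ways, with means of 2.51 CPM in hot3-2 and 0.895 CPM in hot3-3 against 1.61 CPM in WT. The part of tissue makeup or of age of the tissue in the results that follow was not tested.

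The motif was searched in the 1000 bases before each annotated gene start, on both strands, as CTTG and CAAG with 5 bases of any kind between them (the palindromic form), or as CTTG and CACG, or CGTG and CAAG, with the same gap (the other form, the last pair being the reverse complement of the one before). Matches may overlap. It was present before 3 of the 10 genes, UPOX, NDB2 and ANAC017. Their sites are shown because these are the letters that the retrograde transcription factors are known to read, and capitals mark the fixed letters of the motif (TAIR10.1, RefSeq sequence, all on the plus strand). In UPOX the site started 51 bases before the gene, in NDB2 at 652 and 79 bases, and in ANAC017 at 110 bases.
UPOX, chr2:9254319-9254347: tttagtaaCTTGctctcCAAGgagatcta
NDB2, distal, chr4:2571767-2571795: acccggttCGTGatgatCAAGaggtttcc
NDB2, proximal, chr4:2572340-2572368: cgatctggCTTGgccacCAAGattgtttg
ANAC017, chr1:12451287-12451315: acctctgtCGTGtcagaCAAGaatgttgg

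UPOX and the proximal NDB2 site had the palindromic form, while the distal NDB2 site and that of ANAC017 had the other form. Of all 27443 nuclear protein-coding genes, 1206 (4.39%) had at least 1 match in a window of this length. The motif was described from genes of this kind, so its share among them is not independent of their choice. For AOX1A, AOX1C, AOX1D, NDA2, NDB4, UGT74E2 and ANAC013 these letters were not in the window. Bases farther upstream or past the annotated start were not searched, so the scan does not show that these genes lack the motif.

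**Figure D1:**
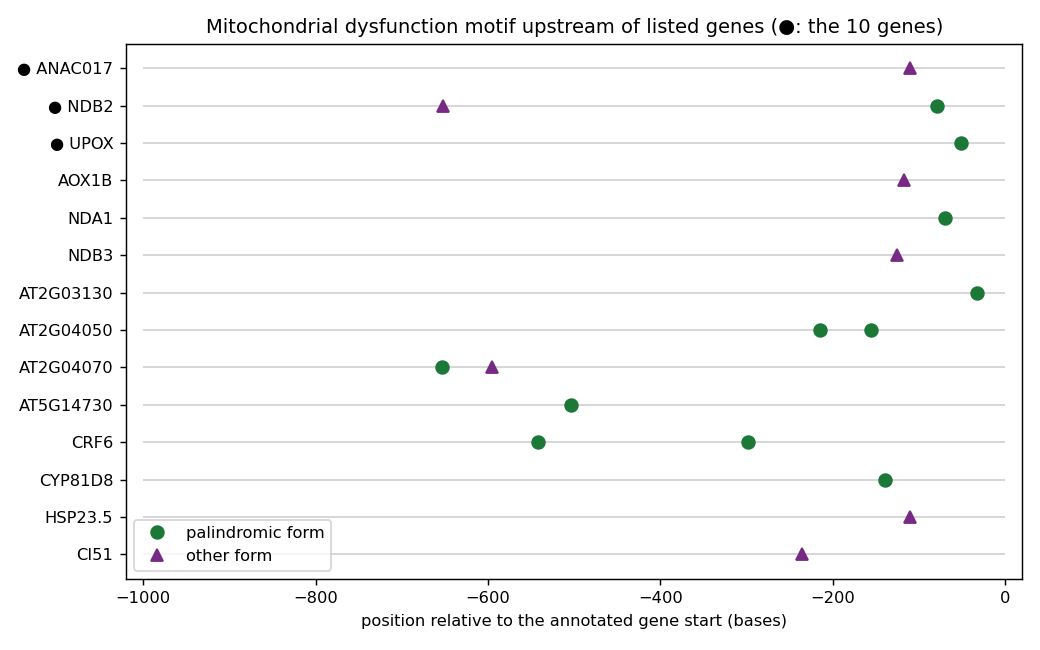
Position of each motif match before the annotated gene start (x axis, bases) for every listed gene with a match (y axis); black dots beside the names mark the set of 10, circles the palindromic form and triangles the other form. UPOX and NDB2 each had a palindromic match within 100 bases of the start.

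AOX1A (AT3G22370, chr3:7906521-7908746, plus strand), the main alternative oxidase of leaves and the usual marker of the retrograde response, was about 2 times as high in both mutants as in WT. It had 194, 184 and 188 CPM in hot3-2 and 201 and 213 CPM in hot3-3, against 106 and 75.1 CPM in WT. Every mutant library lay above both WT libraries, and the WT libraries were farther apart than those of either mutant. Its change over WT was, on the log2 scale, 1.06 ± 0.13 in hot3-2 and 1.20 ± 0.14 in hot3-3 (SE). Without WT replicate 2 it was 0.80 in hot3-2 and 0.94 in hot3-3, below the fold limit of 1 on the log2 scale that the study used.

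AOX1C (AT3G27620, chr3:10229045-10230707, minus strand), a second gene for the oxidase that seedlings express weakly, showed a much larger ratio at a far lower level. Its values were 6.37, 6.29 and 5.95 CPM in hot3-2 and 7.32 and 7.88 CPM in hot3-3, against 0.554 and 0.289 CPM in WT. The WT values rested on 9 and 6 counts, while the mutant libraries held between 88 and 276. Fitted log2 fold changes were 3.91 ± 0.25 in hot3-2 and 4.21 ± 0.25 in hot3-3. The coding sequences of AOX1A and AOX1C were 79.8% identical, with a longest shared run of 34 bases, and only uniquely mapped read pairs were counted.

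AOX1D (AT1G32350, chr1:11666886-11668690, minus strand), an oxidase known for its response to inhibitors of the cytochrome pathway, did not follow them in hot3-2. It had 1.98, 0.929 and 0.991 CPM in hot3-2 and 2.36 and 2.77 CPM in hot3-3, against 1.35 and 1.3 CPM in WT. Both hot3-3 libraries lay above WT, whereas hot3-2 had 1 library above and 2 below it. The log2 fold change was 0.03 ± 0.35 in hot3-2 and 0.96 ± 0.35 in hot3-3. Without hot3-2 replicate 1 the hot3-2 value was -0.48. AOX1D held 13 to 97 counts per library, and its standard errors were the largest of the set.

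The family as a whole can be summed per length of exon, which allows genes to be compared. All 5 alternative oxidase genes together reached 116, 109 and 112 CPM per kb in hot3-2 and 121 and 129 CPM per kb in hot3-3, against 61.3 and 43.7 CPM per kb in WT. AOX1A made up 94.8%, 95.2% and 95.4% of that sum in hot3-2 and 94.1% and 93.9% in hot3-3, against 97.8% and 97.4% in WT. AOX1A thus carried nearly all of the family's transcript in each genotype, with a slightly smaller share in the mutants. AOX1B, which lies 944 bases from AOX1A, had no count in any library except 2 counts in hot3-3 replicate 2.

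**Figure D2:**
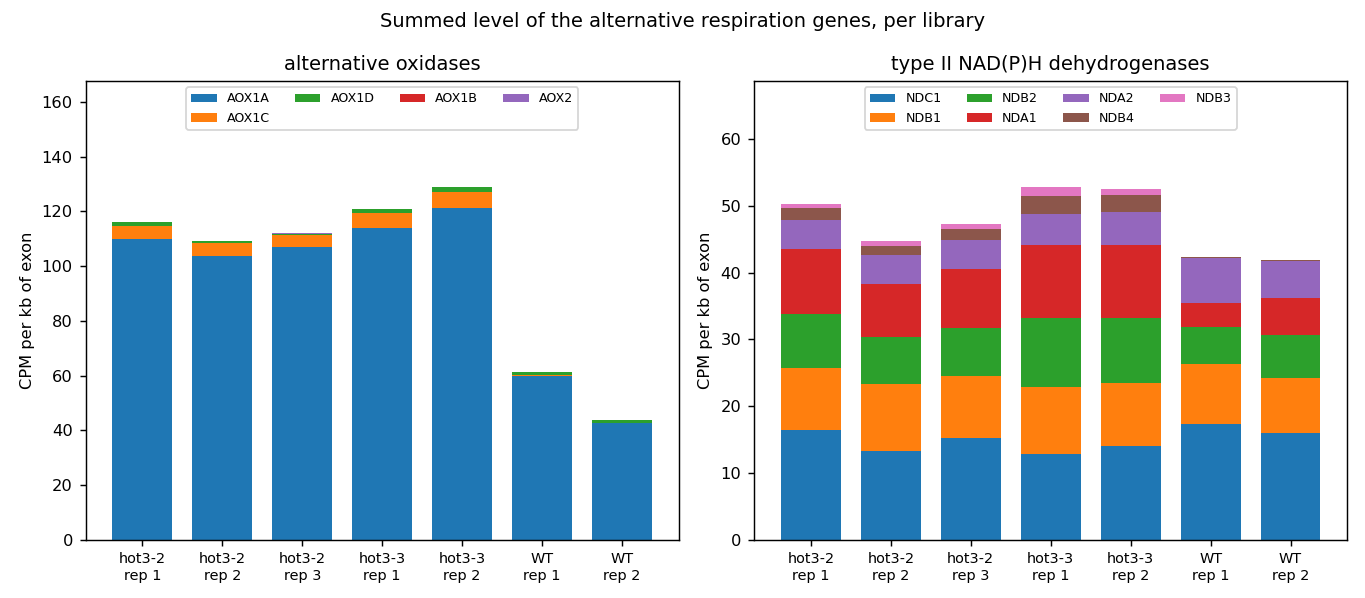
Summed level per library (bars, CPM per kb of exon) of the 5 alternative oxidase genes (left) and the 7 type II NAD(P)H dehydrogenase genes (right), with each gene's part in color. The oxidase sum was 109 to 129 in the mutants and 43.7 to 61.3 in WT, while the dehydrogenase sum was 44.8 to 52.8 in the mutants and 41.9 to 42.3 in WT.

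Among the dehydrogenases, NDB4 (AT2G20800, chr2:8953057-8955831, minus strand), an enzyme of the outer face of the inner membrane, differed most. It had 3.91, 3.00 and 3.18 CPM in hot3-2 and 5.68 and 5.48 CPM in hot3-3, against 0.369 and 0.145 CPM in WT. The WT libraries held only 6 and 3 counts. The ratio of summed, depth-corrected counts was 14.1 in hot3-2 (95% counting interval 7.3 to 31.4) and 22.9 in hot3-3 (11.9 to 50.4), and the fitted log2 fold change was 3.77 ± 0.34 in hot3-2 and 4.48 ± 0.33 in hot3-3. NDB4 supplied 3.76%, 3.23% and 3.25% of the dehydrogenase sum per kb in hot3-2 and 5.18% and 5.03% in hot3-3, against 0.421% and 0.166% in WT.

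NDB2 (AT4G05020, chr4:2572427-2576599, plus strand), the external NADH dehydrogenase that is commonly coexpressed with AOX1A, was raised far less. It had 20.6, 18.1 and 18.3 CPM in hot3-2 and 26.5 and 24.6 CPM in hot3-3, against 14.0 and 16.2 CPM in WT. The 3 groups did not overlap, with hot3-3 highest and WT lowest. Set against WT, its log2 fold change came to 0.33 ± 0.11 in hot3-2 and 0.75 ± 0.11 in hot3-3.

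NDA2 (AT2G29990, chr2:12793320-12796085, minus strand), an internal enzyme that faces the matrix, was the only gene of the set with every mutant library below WT. It had 8.43, 8.36 and 8.40 CPM in hot3-2 and 8.95 and 9.68 CPM in hot3-3, against 13 and 10.9 CPM in WT. Against WT, the log2 fold change was -0.51 ± 0.12 in hot3-2 and -0.36 ± 0.13 in hot3-3. Its share of the dehydrogenase sum per kb was 8.66% to 9.61% in the mutants and 13.4% to 15.9% in WT. NDA1, the paralog with 80.5% coding identity, stood the other way round, at 17.6% to 20.8% in the mutants and 8.59% to 13.2% in WT. NDC1, a further type II dehydrogenase, was the largest part of the sum. It made up 24.3% to 32.6% in the mutants and 38.2% to 40.8% in WT, so the sum and the other genes' shares depend on it. The log2 fold change of NDC1 was -0.15 ± 0.10 in hot3-2 and -0.31 ± 0.11 in hot3-3.

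UPOX (AT2G21640, chr2:9254378-9255743, plus strand), a mitochondrial protein named for its induction by oxidative stress, had the tightest values of the strongly raised genes. It had 47.1, 45.6 and 46.0 CPM in hot3-2 and 62.9 and 63.9 CPM in hot3-3, against 4.06 and 4.09 CPM in WT. No group came near another. The log2 fold change was 3.50 ± 0.09 in hot3-2 and 3.96 ± 0.09 in hot3-3. Its palindromic site is the match nearest to a gene start in the set.

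UGT74E2 (AT1G05680, chr1:1703002-1704838, minus strand), a glucosyltransferase that acts on the auxin precursor indole-3-butyric acid and a common marker of mitochondrial and oxidative stress, did not separate the groups well. It had 159, 135 and 148 CPM in hot3-2 and 168 and 219 CPM in hot3-3, against 158 and 96.0 CPM in WT. WT replicate 1 lay within the hot3-2 range, and WT replicate 2 was far below it. Its change over WT was, on the log2 scale, 0.21 ± 0.19 in hot3-2 and 0.61 ± 0.21 in hot3-3. It was -0.14 in hot3-2 without WT replicate 2, and 1.01 in hot3-3 without WT replicate 1, so that 1 WT library decided the direction in hot3-2 and the size in hot3-3.

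Of the transcription factors, ANAC013 (AT1G32870, chr1:11911631-11913947, plus strand), itself a target of the response, was raised in both mutants. It had 31.7, 30.9 and 30.7 CPM in hot3-2 and 44.7 and 42.2 CPM in hot3-3, against 20.7 and 15.8 CPM in WT. Its 3 groups were separate, in the order hot3-3, hot3-2, WT. Fitted log2 fold changes were 0.78 ± 0.11 in hot3-2 and 1.26 ± 0.12 in hot3-3. The gene shares 20 bases with AT1G32880 on the other strand, and the strand setting of the counting is not given in the sources used here.

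ANAC017 (AT1G34190, chr1:12451405-12454542, plus strand), the sensor known to be activated by release from its membrane, kept nearly the same transcript level. It had 66.4, 57.1 and 60.6 CPM in hot3-2 and 54.1 and 57.2 CPM in hot3-3, against 53.8 and 54.5 CPM in WT. All hot3-2 libraries lay above WT by a small margin, and the hot3-3 libraries overlapped both other groups. The log2 fold change was 0.18 ± 0.08 in hot3-2 and 0.04 ± 0.09 in hot3-3. Its neighbor and closest relative ANAC016 is described with the regulators.

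**Figure D3:**
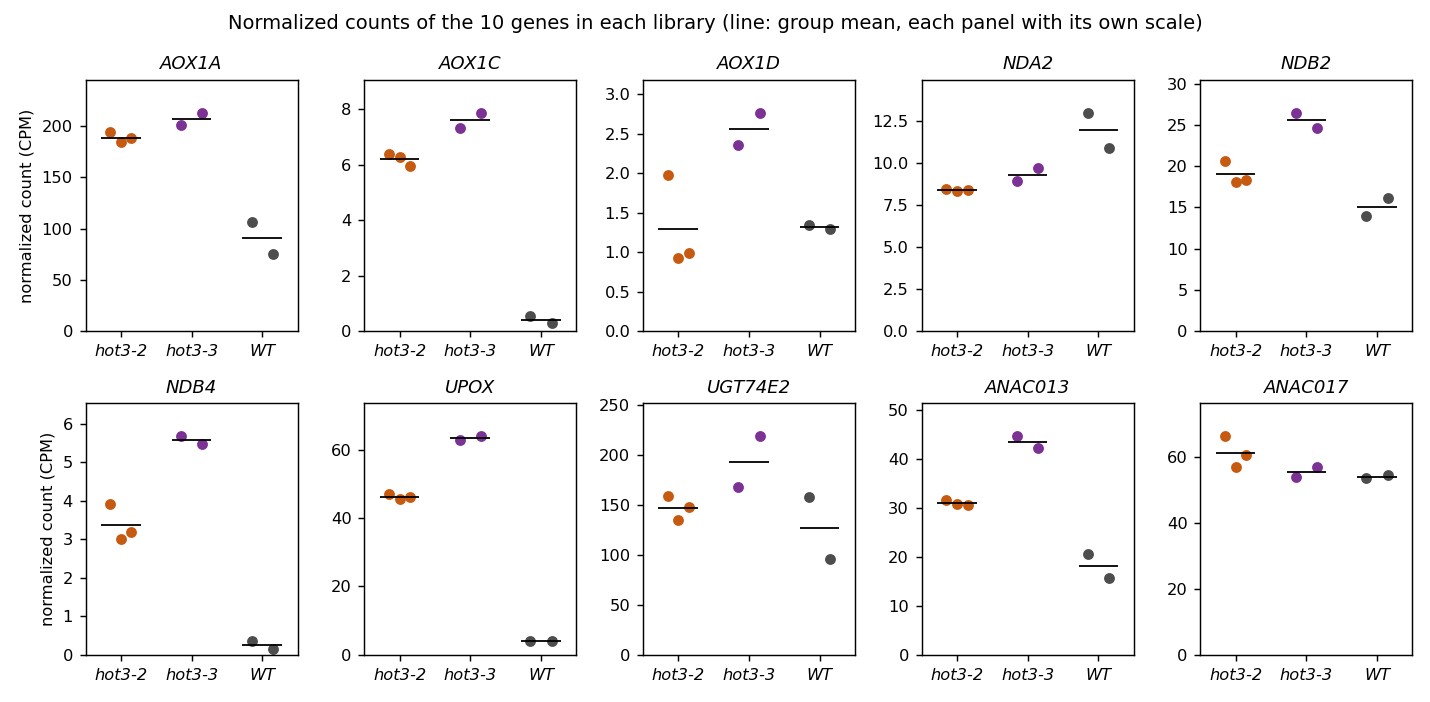
Normalized counts (y axis, CPM, each panel from 0 on its own scale) of the 10 genes in hot3-2, hot3-3 and WT (x axis); each point is 1 library and each line a group mean. On their own scales AOX1C, NDB4 and UPOX were low in WT and far higher in all mutant libraries. NDA2 was lower in the mutants, and UGT74E2 and AOX1D overlapped WT in hot3-2.

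Across the set, 4 genes (AOX1A, AOX1C, NDB4 and UPOX) were past the study's limits of adjusted P below 0.01 and log2 fold change of at least 1 in hot3-2, and 5 (the same 4 and ANAC013) in hot3-3. None was past them in the lower direction. Among the tested genes of the whole genome, 7.8% passed in the higher direction and 3.88% in the lower for hot3-2. For hot3-3 these shares were 9.63% and 4.91%. Since the genes were chosen by these values, nothing is read from those shares. The median log2 fold change of the 10 was 0.56 in hot3-2 and 1.08 in hot3-3, against 0.00 and 0.01 over all genes.

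Every hot3-2 library lay above every WT library for 7 of the 10 genes and below for 1, where 34.7% of all genes lay above and 32.1% below. Every hot3-3 library lay above WT for 8 and below for 1, where 38.7% of all genes lay above and 37% below. The groups are small, so that such a separation is common.

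**Figure D4:**
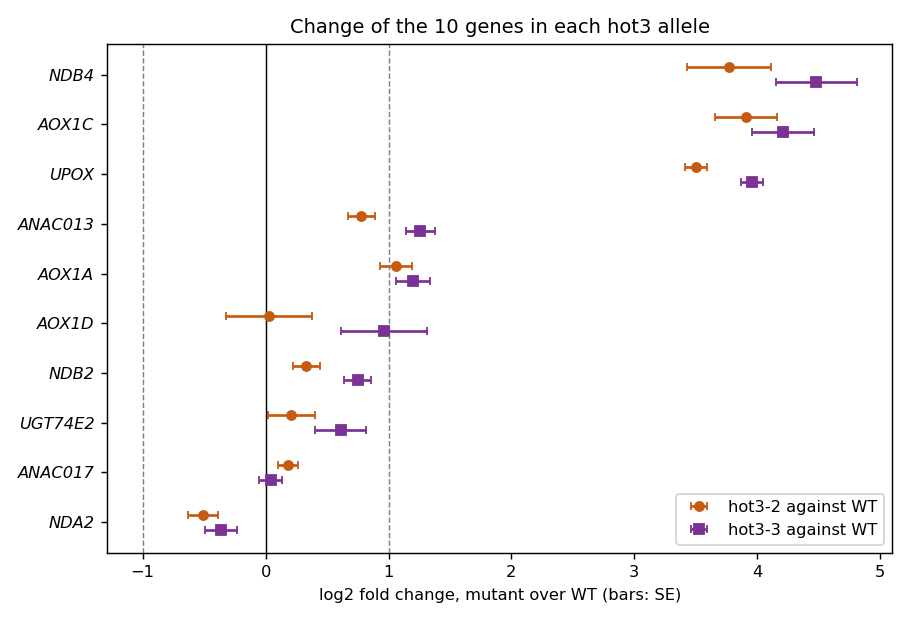
Log2 fold change over WT (x axis, bars SE) of the 10 genes (y axis) in hot3-2 (circles) and hot3-3 (squares), with the fold limit of 1 dashed. NDB4, AOX1C and UPOX lay between 3.50 and 4.48, and only NDA2 was below 0 in both alleles.

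The order of the genes by level also differed between genotypes. Per kb of exon, AOX1A led in hot3-2 (mean 107 CPM per kb), before UGT74E2 at 83.8 and UPOX at 62.9, and these ranges did not overlap. In hot3-3 AOX1A (117 CPM per kb) and UGT74E2 (110 CPM per kb) overlapped and UPOX followed at 86.2. In WT UGT74E2 (72.4 CPM per kb) and AOX1A (51.3 CPM per kb) overlapped, and UPOX, at 5.55 CPM per kb, stood seventh, next to NDA2 at 6.18 and NDB2 at 5.88.

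The lower end of that order changed too. NDB4 was the lowest in WT at a mean of 0.124 CPM per kb, below AOX1C at 0.313 and AOX1D at 0.870. AOX1D was the lowest in both mutants, at 0.852 CPM per kb in hot3-2 and 1.68 CPM per kb in hot3-3. AOX1C exceeded NDA2 in both mutants, at 4.61 against 4.33 CPM per kb in hot3-2 and 5.65 against 4.8 CPM per kb in hot3-3. ANAC017 was above ANAC013 in hot3-2 (23.4 and 15.9 CPM per kb) and WT (20.6 and 9.32 CPM per kb), and in hot3-3 their ranges overlapped.

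The 2 alleles were set side by side to ask whether the response is of the same size in both. Every hot3-3 library lay above every hot3-2 library for 9 of the 10 genes, all but ANAC017, where 22.6% of all genes lay above and 25.2% below. No gene of the set was past both limits in edgeR's quasi-likelihood test with Benjamini-Hochberg adjustment, where 0.856% of all genes were higher and 0.351% lower in hot3-3, while 5 of the 10 were higher and 0 lower at an unadjusted P below 0.05, where 12.9% of all genes were higher and 12.9% lower. With DESeq2 0 passed both limits as well. Nothing is read from these counts, since the levels of both alleles were known at the choice. The median difference was 0.41 on the log2 scale, against -0.00 over all genes.

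On the log2 scale UPOX was higher in hot3-3 than in hot3-2 by 0.45 ± 0.07 (SE). The difference was 0.48 ± 0.10 for ANAC013 and 0.42 ± 0.10 for NDB2. NDB4 and AOX1D, both with few counts, had larger and less certain differences of 0.71 ± 0.19 and 0.93 ± 0.31. AOX1A, the oxidase with the highest level, differed by 0.13 ± 0.12, and ANAC017 was the only gene with a negative value, -0.14 ± 0.08.

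The other bypass genes that could be tested moved little, apart from NDB3 and NDA1. Of 8 further genes, 6 could be tested. Of these, 1 was higher in hot3-2 (16.7%, against 7.8% of all genes) and 2 in hot3-3 (33.3%, against 9.63%), and none was lower. The median log2 fold change of the 6 was 0.11 in hot3-2 and 0.10 in hot3-3, against 0.00 and 0.01 over all genes. The 6 include the uncoupling proteins UCP1 and UCP2, which are neither oxidases nor dehydrogenases. UCP1 changed by 0.08 in hot3-2 and 0.03 in hot3-3, and UCP2 by 0.05 and -0.23. NDB3, an external dehydrogenase with 84.5% coding identity to NDB2, had 1.08, 1.57 and 1.57 CPM in hot3-2 and 2.79 and 1.71 CPM in hot3-3, against 0 and 0.193 CPM (0 and 4 counts) in WT. The ratio of NDB3 was 12.6 in hot3-2 (95% counting interval 4.74 to 47.5) and 19.6 in hot3-3 (7.44 to 73), and it rose in both (adjusted P = 0.00184 in hot3-2 and 0.000517 in hot3-3). A noncoding gene on the same strand overlaps NDB3 by 101 bases.

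NDA1, the internal dehydrogenase known for its control by light, had 20.9, 17.1 and 19.4 CPM in hot3-2 and 23.6 and 23.7 CPM in hot3-3, against 7.87 and 12 CPM in WT. It rose by 1.24 ± 0.17 on the log2 scale in hot3-3 (adjusted P = 0.000331), and in hot3-2 the value was 0.94 ± 0.16 (adjusted P = 0.00132), just under the fold limit. Without WT replicate 1 the hot3-3 value was 0.98. The hot3-2 value was 1.25 without WT replicate 2 and 1.01 without hot3-2 replicate 2. Leaving out 1 library thus moved each value across the limit. NDA1 and NDA2, both internal, thus stood on opposite sides of WT.

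Genes that the literature groups as targets of mitochondrial dysfunction moved most. Of 16 such genes outside the set, all were tested, 12 rose in hot3-2, 14 rose in hot3-3 and none was lower. That is 75% of the list in hot3-2 and 87.5% in hot3-3, against 7.8% and 9.63% of all genes. This list was drawn up with earlier results of these data known. The shares are therefore descriptions, and the P values below are not independent of the choice. The median log2 fold change was 2.08 in hot3-2 and 2.80 in hot3-3, against 0.00 and 0.01 over all genes, and each of the 16 had a positive value in both alleles. CRF6, a cytokinin response factor that acts in oxidative stress, had 89.1, 96.4 and 95.1 CPM in hot3-2 and 138 and 127 CPM in hot3-3, against 14.2 and 12 CPM in WT. Its log2 fold change was 2.84 ± 0.10 in hot3-2 (adjusted P = 4.94e-07) and 3.34 ± 0.11 in hot3-3 (adjusted P = 2.16e-07).

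A pair of MATE-type transporter genes on chromosome 2 was raised even more. AT2G04050 had 232, 261 and 245 CPM in hot3-2 and 315 and 307 CPM in hot3-3, against 18.7 and 10.4 CPM in WT. AT2G04070 had 32.1, 29.6 and 33.1 CPM in hot3-2 and 53.7 and 50.4 CPM in hot3-3, against 1.48 and 0.578 CPM in WT. The log2 fold change of AT2G04050 was 4.09 ± 0.21 in hot3-2 and 4.43 ± 0.22 in hot3-3, and that of AT2G04070 was 5 ± 0.22 in hot3-2 and 5.72 ± 0.22 in hot3-3. Their coding sequences were 90.3% identical with a longest shared run of 99 bases, so how the counts divide between them is uncertain.

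Also among the 6 genes with the smallest P, AT1G24095 changed by 2.94 ± 0.15 in hot3-2 and 3.16 ± 0.15 in hot3-3 on the log2 scale. AT2G41730 changed by 2.09 ± 0.17 in hot3-2 and 2.12 ± 0.17 in hot3-3, and AT2G41380 by 1.60 ± 0.15 in hot3-2 and 1.87 ± 0.15 in hot3-3. OM66, an ATPase of the outer mitochondrial membrane named here after its values were seen, had 27.9, 43.7 and 35.4 CPM in hot3-2 and 60.1 and 175 CPM in hot3-3, against 8.0 and 8.77 CPM in WT. Its hot3-3 libraries differed by a larger ratio than those of any member of the set, and its log2 fold change was 2.08 ± 0.43 in hot3-2 and 3.81 ± 0.46 in hot3-3. Leaving out any of 4 libraries (either WT library, or hot3-2 replicate 2 or 3) ended the call of OM66 in hot3-2, with adjusted P of 0.0111 to 0.0299, and without hot3-3 replicate 2 the hot3-3 value was 2.84.

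The motif was found before 7 of these 16 genes (43.8%) and before 3 of the 8 further bypass genes (37.5%), against 3 of the 10 members (30%) and 4.39% of all genes. AT2G04050 and CRF6 each held a pair of palindromic sites. These are shown because AT2G04050 had the highest level per kb of the 16 in the mutants and CRF6 had the smallest P. The site of NDA1 is shown for comparison with NDA2, which had none in the window. All are from TAIR10.1, RefSeq sequence, in the direction of the gene.
AT2G04050, distal, chr2:1339663-1339691, minus strand: tattagaaCTTGattccCAAGtaatcttt
AT2G04050, proximal, chr2:1339604-1339632, minus strand: tatacgaaCTTGgtcccCAAGtatatttc
CRF6, distal, chr3:22804448-22804476, plus strand: ataagagaCTTGgtctcCAAGcaaaagat
CRF6, proximal, chr3:22804692-22804720, plus strand: aaaagttgCTTGgagacCAAGctatagat
NDA1, chr1:2204026-2204054, plus strand: tgtcgtttCTTGcgcatCAAGttctgctg

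The AT2G04050 sites started 215 and 156 bases before the gene, those of CRF6 542 and 298 bases and that of NDA1 70 bases. Over the whole genome, the motif stood before 7.03% of the genes higher in hot3-2 and 6.79% of those higher in hot3-3, against 3.87% of those lower in hot3-2, 3.69% of those lower in hot3-3 and 4.05% of all tested genes with a promoter window. These shares are descriptions. Among the members AOX1C and NDB4 had large ratios without a match in the window, and ANAC017 had a match with nearly the same level in all genotypes. The part of the motif in the change was not tested.

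Of 15 regulators of retrograde signaling, 13 were tested, 1 rose in hot3-2, 2 rose in hot3-3 and none was lower. These counts are 7.69% and 15.4% of the list, against 7.8% and 9.63% of all genes, so the first is no more than the background. Their median log2 fold change was 0.23 in hot3-2 and 0.56 in hot3-3, against 0.00 and 0.01 over all genes. ANAC016, which lies 117 bases from ANAC017 on the same strand and shares 83.1% of its coding sequence, had 10.9, 13.6 and 12.7 CPM in hot3-2 and 17.3 and 19.6 CPM in hot3-3, against 2.09 and 3.03 CPM in WT. It rose by 2.25 ± 0.18 on the log2 scale in hot3-2 (adjusted P = 1.49e-05) and by 2.83 ± 0.19 in hot3-3 (adjusted P = 4.56e-06), whereas ANAC017 beside it did not separate from WT in hot3-3.

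WRKY40, a repressor of stress genes in chloroplast and mitochondrial signaling, was the only gene past both limits between the alleles among the members and the 4 lists of related genes. It had 23.4, 43.9 and 34.1 CPM in hot3-2 and 77.7 and 185 CPM in hot3-3, against 17.2 and 20.4 CPM in WT. Set against WT, its log2 fold change came to 2.81 ± 0.40 in hot3-3 (adjusted P = 0.000376), and in hot3-2 it was 0.83 ± 0.37 (adjusted P = 0.0877). RCD1, named for its role as a protein that binds and restrains ANAC013 and ANAC017, had values of 0.43 ± 0.08 in hot3-2 and 0.73 ± 0.09 in hot3-3, under the fold limit in both.

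**Figure D5:**
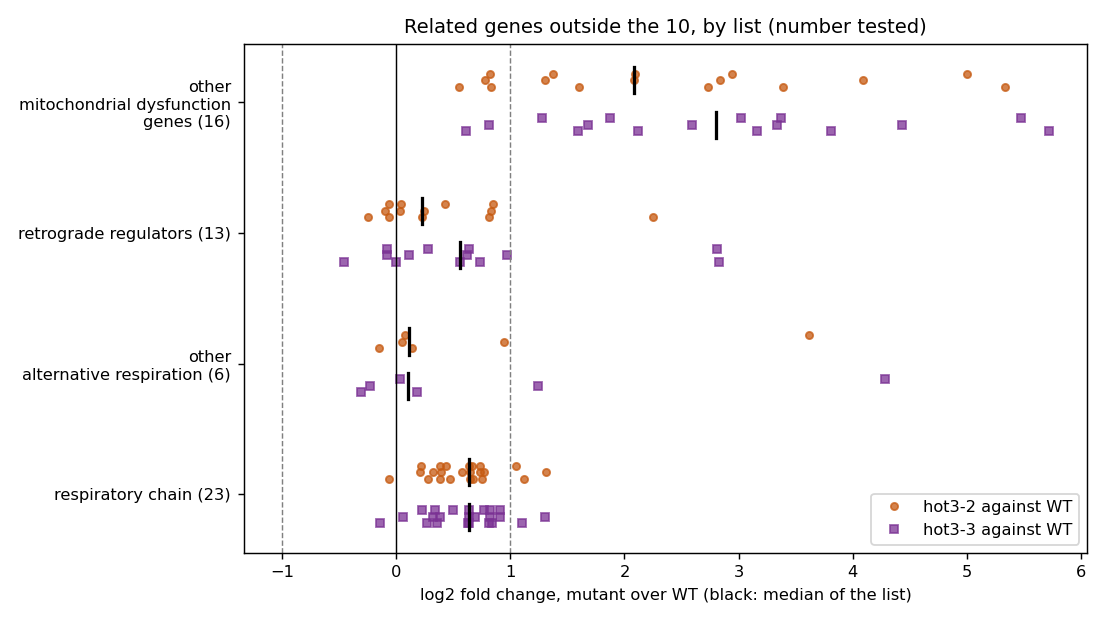
Log2 fold change over WT (x axis) of each tested gene in 4 lists of related genes (y axis, number tested in brackets), hot3-2 as circles above and hot3-3 as squares below, with the median in black and the fold limit of 1 dashed. The dysfunction genes had medians of 2.08 and 2.80 and the respiratory chain genes 0.64 in each allele.

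Nuclear genes of the respiratory chain, from complex I and the succinate dehydrogenase to cytochrome c oxidase, and of ATP synthase showed small values, nearly all in 1 direction. All 23 were tested, 3 rose in hot3-2, 2 rose in hot3-3 and none was lower, with a median log2 fold change of 0.64 in each allele against 0.00 and 0.01 over all genes. The called genes were 13% of the list in hot3-2 and 8.7% in hot3-3, near the 7.8% and 9.63% of all genes. In the 4 lists of related genes DESeq2 also called 0 lower, and at an unadjusted P below 0.05 those lower were 0 in hot3-2 and, in hot3-3, 1 bypass gene and 1 regulator, where 26.9% of all genes were lower in hot3-2 and 27.1% in hot3-3. CYTC-1, a cytochrome c gene, changed by 1.31 in hot3-2 and 1.3 in hot3-3, and ATPE, a subunit of ATP synthase, by 1.05 in hot3-2 and 1.1 in hot3-3. For ATPE the hot3-2 value was 0.97, under the limit, without WT replicate 2 or hot3-2 replicate 1. COX5B-1, a subunit of cytochrome c oxidase, was at 1.12 in hot3-2 and 0.91 in hot3-3, the second under the fold limit. In 22 of the 23 genes the value was positive, and 20 had an adjusted P below 0.01 in hot3-2 and 18 in hot3-3 with no fold limit, where 18.8% of all genes were higher in hot3-2 and 19.5% in hot3-3.

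Transcripts of the mitochondrial genome itself took 0.00705%, 0.00798% and 0.00708% of counts in hot3-2 and 0.00615% and 0.00949% in hot3-3, against 0.00612% and 0.00611% in WT, over 122 loci. The hot3-3 libraries were farther apart from each other than the genotypes were. Poly(A) selection captures such transcripts only in part.

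The pattern of AOX1A over the 7 libraries was most like that of 5 genes outside the set, measured by Pearson's r of log2 CPM. These were PR5 (r = 0.9980), a defense protein, PRMT1A (r = 0.9976), an arginine methyltransferase, CYP71A21 (r = 0.9975), AT1G29880 (r = 0.9970) and EIF2 ALPHA (r = 0.9970), a translation initiation factor subunit. In all 92 of 15495 genes exceeded 0.99. The value mainly reflects the step between genotypes, which all these libraries share. Within the set, AOX1C and NDB4 reached 0.98 with AOX1A, UPOX 0.97 and ANAC013 0.95, followed by NDB2 and UGT74E2 at 0.75, ANAC017 at 0.48, AOX1D at 0.37 and NDA2 at -0.76.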

How the data were processed

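Raw read counts per gene were used as deposited by the authors, 1 table per library. Per the submitters' processing notes, reads were trimmed with cutadapt 4.2, mapped with STAR 2.7.10b and counted with featureCounts 2.0.3; per the study's methods only unique, proper pairs on TAIR10 were kept. The strand setting and annotation release are not given in the sources used here. The deposited gene length column served for CPM per kb. Of 27443 nuclear loci matched to TAIR10.1, 99.4% had the same exonic length.

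Genes were filtered with filterByExpr (minimum count 10), scaled by TMM and fitted over all 7 libraries in edgeR 4.0.16 (R 4.3.3) by genotype. The quasi-likelihood F test was adjusted by Benjamini-Hochberg over 20795 genes. The study's limits (adjusted P below 0.01, log2 fold change of 1) were used; no tool is named in its methods for this gene-level comparison of the polyadenylated RNA. The procedure was tested on simulated data. Of genes with a true log2 change of 1, the limit itself, 54% were recovered for hot3-2 and 62% for hot3-3. At a change of 1.5 it recovered 100% for each, so genes near the limit can be missed. Changed genes were drawn only from those above a floor on the WT level, with spread set by the trend over all genes. AOX1C, AOX1D, NDB3 and NDB4 lay below that floor, so these recoveries do not cover them. The range of depth over the libraries is given in the report, and intervals of count ratios cover counting error only.

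The members and lists were chosen with earlier results of these data known. Named genes were the members, up to 6 called genes per list by smallest P, and the 5 loci most like AOX1A with a mean of at least 5 CPM (pseudocount 0.5). Alternatives were DESeq2 1.42.0, its size factors, other filters, thinning, a replicate block, another threshold and leaving out each library.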

Additional observations from a re-analysis of the deposited data

Results flagged for a closer look

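WRKY40 differed between the alleles by a test of the difference itself, and is given as a value. It was 1.98 ± 0.33 higher in hot3-3 than in hot3-2 on the log2 scale (edgeR's quasi-likelihood test, adjusted P = 0.00965). Both hot3-3 libraries lay above all hot3-2 libraries, and hot3-3 replicate 2, at 185 CPM, was far above replicate 1 at 77.7 CPM. Without hot3-3 replicate 2 the difference was 1.21 (adjusted P = 0.0275). It also missed the limit, with adjusted P of 0.0102 to 0.0543, without WT replicate 2, without any 1 of the hot3-2 libraries, and with WT left out of the fit. The cause was not tested.

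Among the tissue markers, 4 genes also differed between the alleles in the same test. On the log2 scale hot3-3 was higher than hot3-2 by 1.62 for SAG13 (adjusted P = 0.00198) and by 1.5 for BGLU21 (adjusted P = 0.00341). The difference was -1.74 for SEN1 (adjusted P = 0.00243) and -1.47 for PI (adjusted P = 0.00985). Of all genes, 0.856% were higher and 0.351% lower in hot3-3 by the same limits. SAG13 missed the limit without hot3-2 replicate 1 (adjusted P = 0.0129) or replicate 3 (adjusted P = 0.0117). SEN1 also missed it without these libraries, with adjusted P of 0.0142 and 0.0185. Without hot3-3 replicate 2 the SEN1 difference was -1.61. BGLU21 and PI were not examined in this way.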

How the results depend on the processing

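With an adjusted P below 0.05 and no fold limit, more genes were called: among the members hot3-2 had 6 higher and 1 lower, hot3-3 had 8 higher and 1 lower, and 3 were higher in hot3-3 than in hot3-2. Of all genes this threshold took 26.2% as higher and 23.1% as lower for hot3-2, 27% and 24.1% for hot3-3, and 4.86% as higher in hot3-3 than in hot3-2. The same change gave 2 higher in hot3-2 and 1 lower in hot3-3 among the other bypass genes. Among the regulators 5 were then higher in hot3-2, while hot3-3 had 8 higher and 1 lower, and 21 respiratory chain genes were higher in each allele. Leaving out 1 library gave 1 to 2 higher bypass genes in each allele. Over all settings, 72 list medians stayed within the spread between mutant libraries and 32 moved beyond it. In hot3-3 the regulators' median was 0.36 without WT replicate 2 and 0.60 after thinning. That of the bypass genes was 0.05 without WT replicate 2 and 0.64 with no low-count filter. The median of the dysfunction genes in hot3-3 was 2.34 without hot3-3 replicate 2. Fitting the replicate number as a block left 4 members higher in hot3-2 and 5 in hot3-3 and changed no list's count. Same-numbered libraries deviated together only weakly (correlations 0.0314 to 0.181). In groups of 2 the deviations of the libraries mirror each other, so these values cannot decide whether same-numbered libraries shared a batch.

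Directions turned for AOX1D in hot3-2 (-0.01 with DESeq2, -0.06 after thinning, -0.04 without WT replicate 2 and -0.48 without hot3-2 replicate 1), for UGT74E2 in hot3-2 (-0.14 without WT replicate 2) and for ANAC017 in hot3-3 (-0.00 without hot3-3 replicate 2). Over single libraries left out, these 3 values reached from -0.48 to 0.20, from -0.14 to 0.62 and from -0.00 to 0.08. The cause was not tested. With 2 WT libraries, values below 1 CPM (AOX1C, NDB4) and those of AOX1A and UGT74E2 are limited by depth or spread in WT.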
